A study of Mus musculus with 31 samples.

Results

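The genes described here encode 9 RNA-binding proteins of the Musashi (*Msi1*, *Msi2*), Muscleblind (*Mbnl1*, *Mbnl2*, *Mbnl3*) and CELF (*Celf1*, *Celf2*) families, with *Rbpms* and *Rbm39*. They were chosen with earlier results of these data known, and 59 of the 45037 probe sets on the array were followed (9 of 18193 genes). Of these, 50 are annotated to a member by the platform. The other 9, all intronic, were added from the study's lists of altered probe sets and of qRT-PCR targets. The set therefore holds probe sets that the study had picked, and its shares beside those of all probe sets are a description. The study's lists class 13 of the 59 as intronic (6 of *Msi2*, 3 each of *Rbpms* and *Rbm39*, 1 of *Mbnl1*) and 3 as mRNA (1 each of *Msi2*, *Mbnl1* and *Rbpms*). The remaining 43 are not classified and are kept apart from the intronic ones below. An intronic probe set reads sequence that splicing removes. An mRNA probe set reads spliced sequence or a last exon, and a last exon is present in unspliced transcripts too.

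The samples came from 4 experiments on Affymetrix mouse expression arrays. In 3 of them the cells were fetal liver hematopoietic stem cells (FL HSCs), sorted as Lin- SCA1+ AA4.1+ KIT++ from thawed livers of 15 pooled embryos at 14.5 days post coitus. The comparisons were 2 *Crebbp*+/- with 2 WT samples and 2 *Ep300*+/- with 2 WT samples (C57BL/6, littermate controls, each sample on 2 arrays), and 4 *Cdkn1a*-/- with 3 WT samples (B6/129Sv, mutant and WT bought as separate stocks, each sample on 1 array). The last experiment compared mouse embryonic fibroblasts (MEFs) from 4 *Crebbp*+/- and 4 WT embryos (C57BL/6, also 14.5 days), 1 of each from each of 4 litters. *Crebbp* and *Ep300* encode paralogous histone acetyltransferases, and *Cdkn1a* encodes the cell cycle inhibitor p21; all 3 alleles are inherited and so are carried by every cell of the embryo. From 12 ng of FL HSC RNA the targets were amplified, while MEF RNA was used unamplified according to the methods, although the labels give the amplification protocol for MEFs too.

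Musashi proteins bind short motifs in mature mRNAs and control how much protein is made from them; MSI2 is the member known for its role in hematopoietic stem cells, whose self-renewal it supports. Muscleblind and CELF proteins bind pre-mRNA near alternative exons, often with opposite effects on their inclusion, and also act on mRNA decay and localization. RBPMS is an RNA-binding regulator of splicing with a known link to SMAD signalling, and RBM39 is a relative of the splicing factor U2AF that also acts as a transcriptional coactivator.

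CREBBP takes its name from CREB, which binds the cAMP response element TGACGTCA, so the promoters of the members were searched for these letters and for their core TGACG, on both strands. RefSeq promoters (GRCm38.p6) were at hand for 7 of the 9 genes. The full element occurs in 1.79% of all 32851 promoters of that table, each 300 bases long, and the core in 20.8%. *Msi2* holds the full element, which contains the core on both strands. None of the promoter windows of *Rbm39*, *Mbnl1*, *Mbnl2*, *Mbnl3*, *Celf1* or *Celf2* does, and of these *Mbnl2* alone holds the core. The 250 bases before the start are shown for *Msi2* (chr11:88718278-88718527, minus strand) and *Rbm39* (chr2:156180239-156180488, minus strand), the genes with the most intronic probe sets measured in the *Crebbp* experiment. Capitals mark the element, 169 to 162 bases before the *Msi2* start; the *Rbm39* stretch has none. A match of letters is no evidence of binding.
Msi2: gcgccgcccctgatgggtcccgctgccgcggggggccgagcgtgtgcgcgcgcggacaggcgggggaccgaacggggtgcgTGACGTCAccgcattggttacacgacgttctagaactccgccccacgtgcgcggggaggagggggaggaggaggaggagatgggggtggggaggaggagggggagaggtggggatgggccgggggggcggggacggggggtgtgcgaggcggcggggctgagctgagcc
Rbm39: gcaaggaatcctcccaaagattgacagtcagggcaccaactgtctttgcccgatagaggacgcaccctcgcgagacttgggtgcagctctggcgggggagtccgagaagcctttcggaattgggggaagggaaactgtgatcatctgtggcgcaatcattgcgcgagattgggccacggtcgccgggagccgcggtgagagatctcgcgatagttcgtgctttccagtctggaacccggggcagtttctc

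The arrays gave a log2 level per probe set, and 6.64, the log2 of an intensity of 100, was the minimum for a probe set to be tested (in at least 1 sample of the fit). Levels were normalized within each experiment and are compared only there. The arrays of an experiment had 11199 to 11512 (*Crebbp*), 12042 to 12363 (*Ep300*), 18947 to 19522 (*Cdkn1a*) and 14380 to 14684 (MEF) probe sets at the minimum. Precision is limited by how many samples there are, since the arrays of a sample were averaged. All 10 stem cell markers found on the array reached the minimum in every FL HSC sample, and all 10 fibroblast markers did so in every MEF sample. *Crebbp* itself had levels of 12.07 and 11.41 in WT and 11.95 and 11.66 in *Crebbp*+/- FL HSCs, so that the genotype rests on the labels there, and 10.15 to 10.34 in WT against 9.38 to 9.496 in *Crebbp*+/- MEFs. *Ep300* had levels of 9.53 and 9.60 in WT and 9.46 and 9.47 in *Ep300*+/- samples. *Cdkn1a* had levels of 7.66, 8.17 and 8.86 in WT and 6.56, 6.34, 8.07 and 5.30 in the libraries labelled *Cdkn1a*-/-, the third of which lies within the WT range; whether the probes lie in the deleted part was not determined here. *Cdkn1a* WT sample 3 also stood apart: the mean level was 8.98 over 6 erythroid, 13.1 over 7 hepatocyte and 8.90 over 9 macrophage markers, where no other sample of that experiment exceeded 2.92, 7.13 and 3.72.

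In *Crebbp*+/- FL HSCs the tested intronic probe sets of *Msi2*, *Mbnl1*, *Rbpms* and *Rbm39* were all lower than in WT, by 0.71 to 1.67 on the log2 scale. The brightest probe set not listed as intronic changed by -0.10 (*Msi2*), 0.07 (*Rbm39*), 0.16 (*Mbnl1*) and -0.51 (*Rbpms*). Over all 9 *Rbm39* probe sets not listed as intronic, the median change was -0.69. A probe set was called when limma gave an adjusted p under 0.05 (Benjamini-Hochberg over the 13332 tested) with a fold over 1.5. Of the 41 member probe sets tested, 4 were called lower, against 0.308% of all probe sets, and 0 higher, against 0.075%. The called ones were 2 intronic probe sets of *Msi2*, the intronic one of *Mbnl1* and the one of *Mbnl1* listed as mRNA. The 3 intronic ones were in the set only through the study's lists. Of these, *Msi2* 1454557_at and intronic *Mbnl1* 1443534_at reached the minimum through 1 WT sample of this experiment alone and so had to be lower elsewhere. The counts and medians that include them are a description. Nominally, that is with the fold but with the p (under 0.05) left unadjusted, 18 member probe sets were lower (all probe sets: 5.32%) and 1 was higher (4.68%). The 18 comprise all 10 of the intronic probe sets tested and 8 of the 31 others. The median log2 change was -1.20 over the 10 intronic probe sets, -0.10 over the 31 others and 0.048 over all probe sets tested. For *Msi2* (2 probe sets), *Mbnl1* (the intronic and the mRNA one) and *Rbm39* (3), this direction is no independent evidence, because the study listed those probe sets for being lower in these same samples. The other 4 intronic ones, of *Msi2* and *Rbpms*, were not on that list, but the study also describes intronic probe sets of *Rbpms* as lower in these samples, so that their direction is not independent either.

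**Figure D1:**
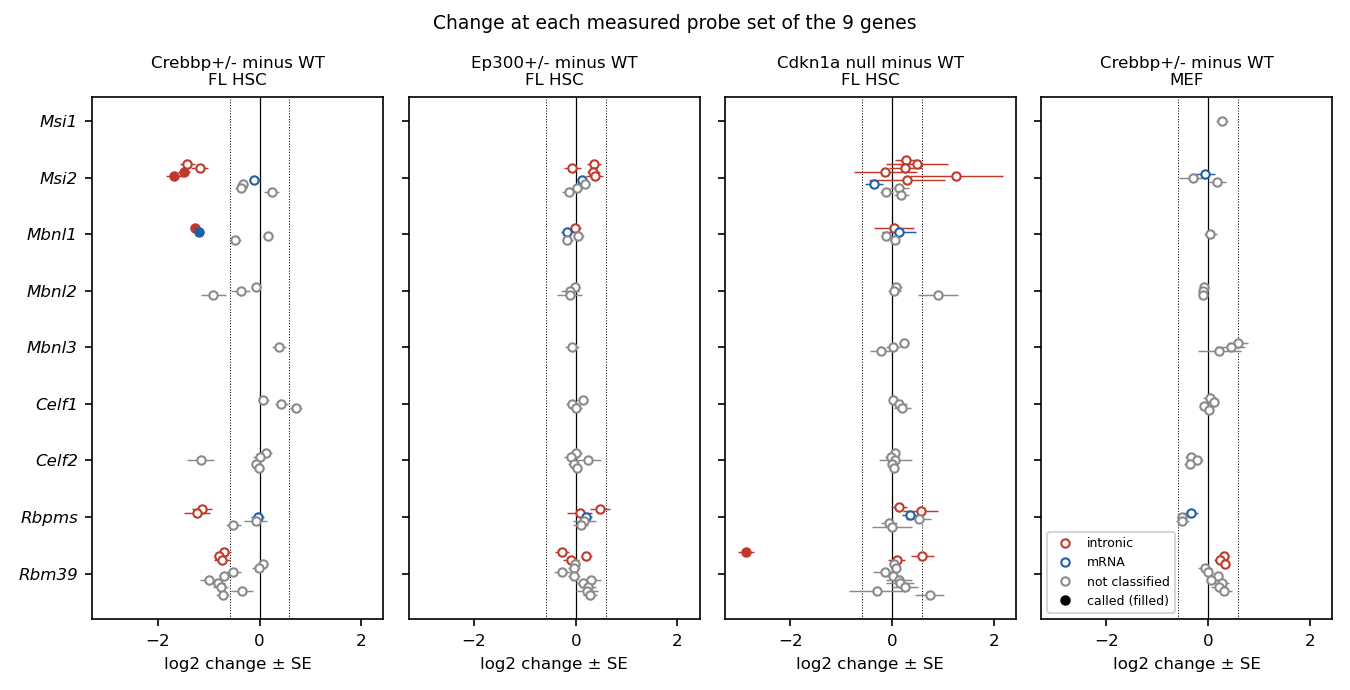
Log2 change, mutant minus WT, with its standard error (x axis) at each measured probe set of the 9 genes (y axis) in the 4 experiments; red points are intronic, blue mRNA and grey not classified, filled points were called, and dotted lines mark a fold of 1.5. All 10 red points lie below 0 in the *Crebbp* FL HSC panel, where the lowest is *Msi2* at -1.67, and between -0.26 and 0.48 in the *Ep300* panel; the filled point of the *Cdkn1a* panel is *Rbm39* at -2.87.

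*Msi2*, the Musashi gene expressed in these cells, was measured at 4 intronic and 4 other probe sets. At intronic probe set 1458542_at the level was 8.26 and 8.40 in the WT samples and 6.48 and 6.83 in the *Crebbp*+/- samples. The groups did not overlap, and the log2 change was -1.67 ± 0.17 (SE; limma 95% confidence interval -2.10 to -1.25, adjusted p = 0.0495). At 1454557_at the levels were 6.65 and 6.23 in WT and 5.13 and 4.77 in *Crebbp*+/- samples, a change of -1.49 ± 0.12 (SE; limma adjusted p = 0.0486); both means are below the minimum, so its size is not exact. At 1441185_at the levels were 8.21 and 8.52 against 6.94 and 6.94. This change of -1.42 ± 0.14 (SE) just missed the threshold, with an adjusted p of 0.0505 from limma. At 1441373_at the WT samples lay at 9.08 and 7.78 and the *Crebbp*+/- samples at 7.76 and 6.74. Pair 1 was higher than pair 2 in both genotypes, and the change was -1.18 ± 0.16 (SE; limma adjusted p = 0.0544). The 2 remaining intronic probe sets, 1443530_at and 1446022_at, stayed below the minimum in every sample of both experiments of the fit.

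*Msi2* changed little at its mRNA probe set in the same samples. Its mRNA probe set 1435521_at had levels of 12.72 and 12.32 in WT and 12.58 and 12.26 in *Crebbp*+/- samples, a change in log2 level of -0.10 with a 95% confidence interval of -0.36 to 0.16 (adjusted p = 0.595 from limma). Of the unclassified probe sets, 1421230_a_at had a change of -0.33, 1435520_at of -0.37 and 1436818_a_at of 0.24, with adjusted p values of 0.148, 0.157 and 0.370 from limma. Taking the mean of the 4 intronic probe sets minus the mRNA probe set in each sample, the value was -4.67 and -4.59 at its extremes in WT and -6.00 and -5.94 in *Crebbp*+/- samples, so that this difference between probe sets was 1.34 lower on the log2 scale in the mutant. It was 1.30 lower when the mean of all 4 other probe sets took the place of the mRNA probe set.

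**Figure D2:**
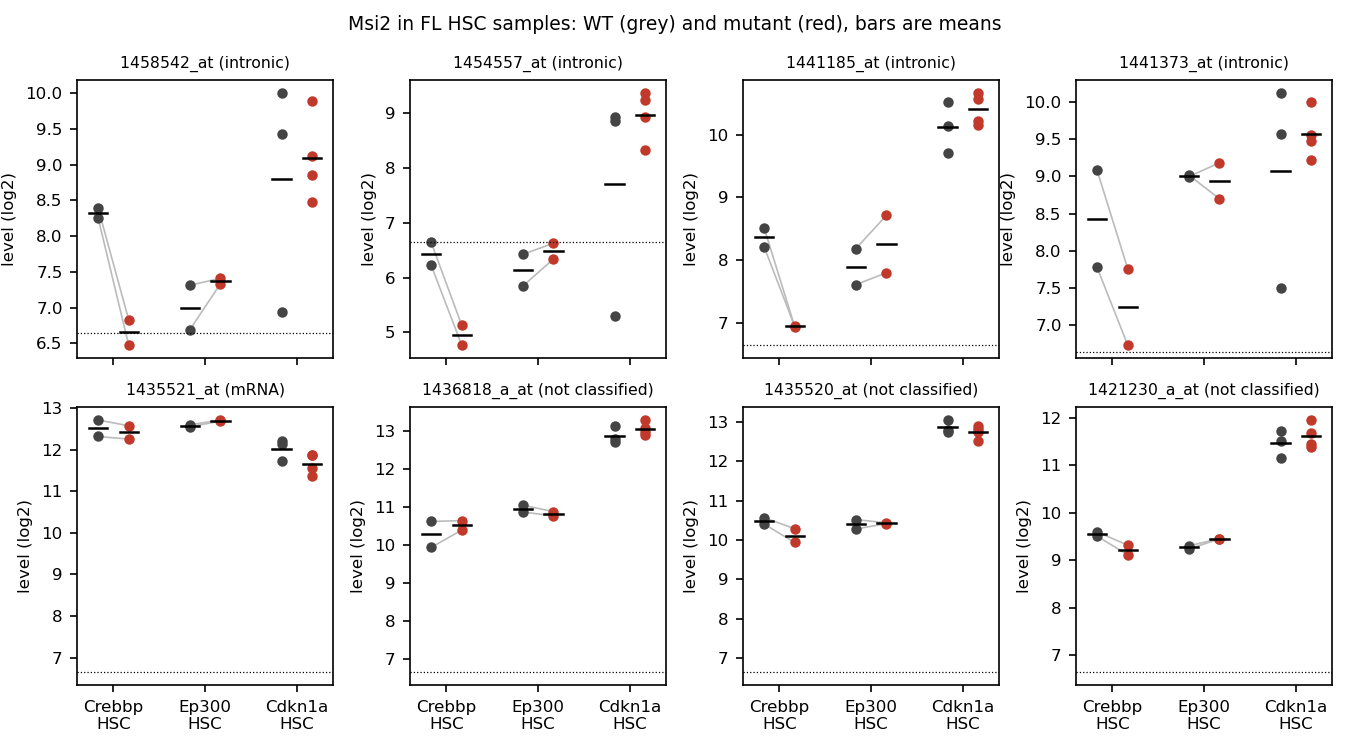
Level (log2, y axis, a scale of its own in each panel) of 8 *Msi2* probe sets in the FL HSC samples of 3 experiments (x axis); points are samples, WT grey and mutant red, bars are means, grey lines join samples of the same number, and the dotted line is the minimum of 6.64. In the *Crebbp* experiment the intronic panels (upper row) step down in both pairs, while the mRNA panel 1435521_at moves from 12.5 to 12.4; the low WT point of the *Cdkn1a* experiment in the upper row is sample 3.

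*Mbnl1*, the Muscleblind gene with an intronic probe set, differed between its own probe sets. At intronic 1443534_at the levels were 6.17 and 7.06 in WT and 4.84 and 5.87 in *Crebbp*+/- samples, a change in log2 level of -1.26 ± 0.11 (SE; limma adjusted p = 0.0486). The probe set listed as mRNA may, by the study's account, read an alternative last exon or an intron of a longer isoform, and so may not read the mature message. This probe set, 1440315_at, was also lower, going from 7.05 and 6.63 to 5.91 and 5.38, a change of -1.20 ± 0.11 (SE; limma adjusted p = 0.0486). At both, 1 or both means are below the minimum. The brightest *Mbnl1* probe set, 1416904_at, did not follow: its levels were 9.84 and 9.16 in WT and 9.96 and 9.35 in *Crebbp*+/- samples, with a change of 0.16 (95% confidence interval -0.10 to 0.42). The remaining one, 1457924_at, had a change of -0.48 (adjusted p = 0.100 from limma). For *Mbnl1*, then, 1 probe set listed as mRNA and the intronic one were called, and the unclassified pair was not.

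*Rbpms* had no called probe set. At intronic 1441779_at the levels were 8.30 and 8.37 in WT and 6.84 and 7.57 in *Crebbp*+/- samples, a change in log2 level of -1.13 ± 0.19 (SE; limma adjusted p = 0.0704). At intronic 1459078_at they were 7.16 and 6.46 against 5.87 and 5.30, a change of -1.23 (adjusted p = 0.0866 from limma). In neither did the groups overlap. The mRNA probe set 1437161_x_at lay at 6.28 and 6.70 in WT and 6.29 and 6.62 in *Crebbp*+/- samples (change -0.04), and the brightest, 1455936_a_at, at 8.39 and 9.29 against 8.08 and 8.58 (change -0.51, adjusted p = 0.133 from limma).

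*Rbm39* was measured at 12 probe sets, and they did not all move alike. The brightest, 1420982_at, had levels of 13.06 and 12.88 in WT and 13.07 and 13.01 in *Crebbp*+/- samples, and 1426671_a_at had 12.26 and 11.98 against 12.10 and 12.10; their changes were 0.07 and -0.02. The intronic probe sets were lower in both pairs, by 0.71 at 1438398_at, 0.80 at 1446147_at and 0.74 at 1456386_at, with adjusted p values of 0.0813, 0.0518 and 0.0840 from limma. At 1446147_at the levels were 9.38 and 8.91 in WT against 8.59 and 8.10, so that the pair differences of -0.80 and -0.81 were nearly equal. Another 5 *Rbm39* probe sets, not classified, 1438420_at, 1439316_at, 1442744_at, 1442745_x_at and 1446148_x_at, moved with them, with changes of -0.69, -0.99, -0.81, -0.77 and -0.73 (adjusted p 0.0651 to 0.0806 from limma). At 1442744_at, for example, the levels were 9.55 and 9.65 in WT and 8.84 and 8.73 in *Crebbp*+/- samples. Whether these 5 lie in introns is not given by the lists used here, and the probe sets with names ending in x_at may share sequence with others.

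Of the members without intronic probe sets, *Mbnl2*, *Celf1* and *Celf2* each had 1 probe set that differed nominally. *Celf2*, a splicing regulator of the CELF family, was at 6.59 and 7.08 in WT and 5.58 and 5.77 in *Crebbp*+/- samples at 1444152_at (change -1.16, adjusted p = 0.0921 from limma), while its brightest probe set, 1423895_a_at, lay at 12.98 and 12.64 against 12.98 and 12.89. *Mbnl2* had a change of -0.91 at its dim probe set 1457477_at (adjusted p = 0.123 from limma) and -0.07 at its brightest, 1433754_at. *Celf1*, which binds GU-rich elements and promotes decay of the mRNAs that hold them, was the member that was higher: 1427413_a_at lay at 9.54 and 8.36 in WT and 10.19 and 9.15 in *Crebbp*+/- samples, a change of 0.72 ± 0.11 (SE; limma adjusted p = 0.0620). The groups overlap there, since pair 1 lay above pair 2 in both genotypes. The brightest *Celf1* probe set, 1426407_at, had a change of 0.07. *Mbnl3*, which is encoded on the X chromosome, was at 7.61 and 7.61 in WT and 7.92 and 8.05 in *Crebbp*+/- samples at 1434678_at (change 0.38, adjusted p = 0.179 from limma). *Msi1*, the Musashi gene known mainly from neural stem cells, had a highest level of 2.60 at its 3 probe sets in this experiment.

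These calls rest on both pairs. Leaving out either pair of the *Crebbp* experiment left 0 called members, and so did the fit without the block that joins each WT sample to its mutant partner. The nominal counts moved less, to between 12 and 19 member probe sets in place of 19 (both directions) over the other settings of the fit. Markers of other cell types differed in places. The mean level of 7 hepatocyte markers, of which 4 were tested and 0 called, was 2.92 in WT sample 1 against 5.89 in WT sample 2, and 5.003 and 5.32 in the *Crebbp*+/- samples. Of 7 megakaryocyte markers 1 was tested, *Gp9*, with a change of -1.21 (adjusted p = 0.0542 from limma), and all 6 erythroid and all 9 macrophage markers stayed below the minimum. The change of the *Msi2* intronic probe sets was present in both pairs. The part of these other cell types in that change, or in the rest of the result, was not tested. Fewer cells of a type and less RNA per cell cannot be told apart in these bulk samples. Amplification from oligo(dT) primers can read introns through internal runs of A, and its part in the intronic levels was not tested.

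In *Ep300*+/- FL HSCs none of the 41 member probe sets tested was called, in either direction, as for all probe sets (0%). Nominally the members again numbered 0 lower and 0 higher, where 0.36% and 0.42% of all probe sets were. The median change of the 10 intronic probe sets was 0.14 on the log2 scale. *Msi2* intronic 1458542_at lay at 7.31 and 6.69 in WT and 7.41 and 7.33 in *Ep300*+/- samples (change 0.37, 95% confidence interval -0.06 to 0.80). At 1454557_at the levels were 6.42 and 5.84 against 6.63 and 6.34 (change 0.35), and the mRNA probe set 1435521_at was at 12.60 and 12.56 against 12.71 and 12.69 (change 0.12). For *Mbnl1* the intronic change was -0.01 and that of mRNA probe set 1440315_at -0.18. The 3 intronic *Rbm39* probe sets had changes of -0.26, 0.21 and -0.09, and the 2 of *Rbpms* 0.48 and 0.07. In every one of these the adjusted p was 1.00 after rounding. *Mbnl3* probe set 1442549_at lay at 3.38 and 3.53 in WT and 5.13 and 5.18 in *Ep300*+/- samples, and stayed below the minimum in all 8 samples of the fit, so that it was not tested. *Msi2* 1454557_at and *Mbnl1* 1443534_at were also below it in all 4 samples of this experiment, and were tested only through a WT sample of the *Crebbp* experiment.

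Whether the effect of *Crebbp*+/- differed from that of *Ep300*+/- was tested in the same fit. limma called 0 probe sets in either direction (0% of 13332), members included. Nominally the members had 17 probe sets with the lower *Crebbp* effect (all probe sets: 4.79%) and 1 with the higher (5.19%). The largest differences belonged to *Msi2*: -2.05 at 1458542_at (95% confidence interval -2.65 to -1.44), -1.84 at 1454557_at (-2.27 to -1.40) and -1.78 at 1441185_at (-2.31 to -1.25), each with an adjusted p of 0.149 from limma. Among the intronic probe sets of the other genes, the difference was -1.62 at *Rbpms* 1441779_at, -1.30 at *Rbpms* 1459078_at, -1.25 at *Mbnl1* 1443534_at and -1.01 at *Rbm39* 1446147_at, with adjusted p values of 0.165, 0.236, 0.149 and 0.152. The unclassified *Celf2* 1444152_at had -1.40 (adjusted p = 0.227) and *Rbm39* 1439316_at -1.29 (adjusted p = 0.184). At *Msi2* 1454557_at and *Mbnl1* 1443534_at, the minimum was reached in only 1 of the 8 samples, a *Crebbp* WT sample. This filter favoured a lower *Crebbp* effect there, so their differences are not exact in size and their intervals are only a description. The remaining tested intronic probe sets differed by -1.11 at *Msi2* 1441373_at, -0.65 at *Rbm39* 1456386_at and -0.45 at *Rbm39* 1438398_at. The interval of *Rbm39* 1438398_at (-0.95 to 0.06) includes 0. The intervals of the other differences named here exclude 0, and the adjusted p values over all probe sets miss the threshold for all of them. The *Crebbp* samples here are those on which the study listed 7 of the member probe sets.

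**Figure D3:**
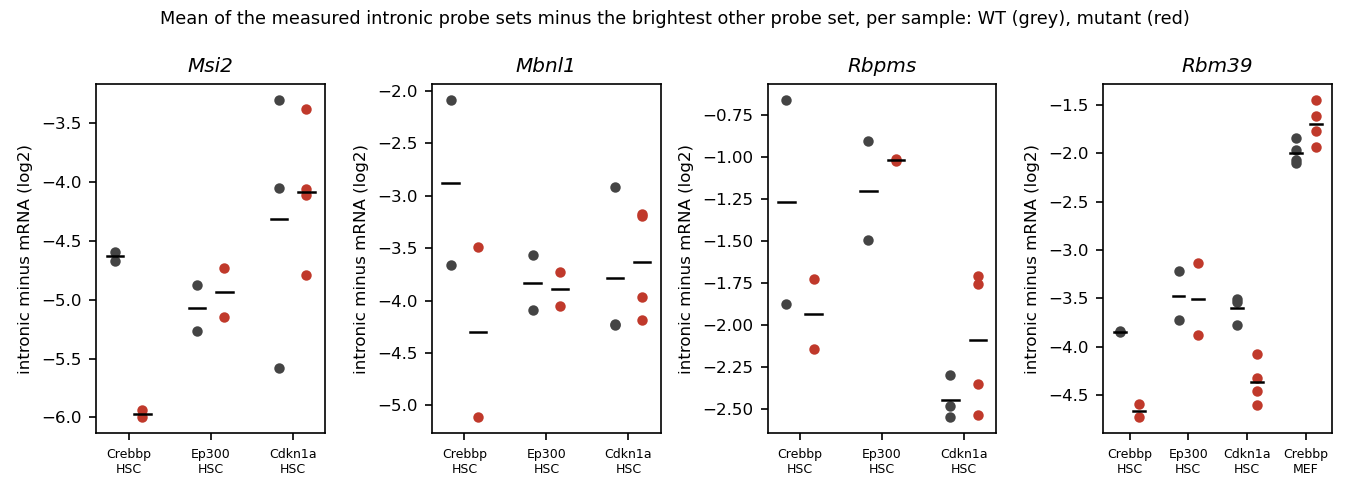
Mean of the measured intronic probe sets minus the brightest other probe set of the same gene (log2, y axis, its own scale in each panel) in each sample of each experiment (x axis), WT grey, mutant red, bars are means. For *Msi2* the *Crebbp*+/- samples lie near -5.97 and the WT samples of that experiment near -4.63, and *Msi2* of the *Ep300* experiment overlaps between genotypes. For *Rbm39* the mutants lie lower in the *Crebbp* and *Cdkn1a* FL HSC experiments and overlap with WT in the MEFs. In the *Cdkn1a* experiment only 1 intronic *Rbm39* probe set, 1438398_at, was lower (change -2.87). The other 2, 1446147_at and 1456386_at, had changes of 0.60 and 0.09.

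The within-gene difference between introns and the brightest other probe set was also taken for the other genes. For *Rbm39* it ran from -3.85 to -3.83 in WT and from -4.73 to -4.59 in *Crebbp*+/- FL HSCs, 0.82 lower in the mutant, but only 0.22 lower against the mean of all 9 other probe sets, since 5 of those moved with the introns. For *Mbnl1* it differed by -1.42 (*Crebbp*+/- minus WT), but the WT samples at -3.66 and -2.09 overlap the *Crebbp*+/- samples at -5.11 and -3.49, and the difference was -0.76 against the mean of all 3 other probe sets. For *Rbpms* it was 0.67 lower, with WT samples from -1.88 to -0.66 and mutant samples from -2.15 to -1.73, again overlapping. For both genes the *Crebbp*+/- sample was lower than its WT partner in each pair. Against the mean of all 3 other *Rbpms* probe sets it was 0.97 lower, and the genotypes did not overlap. In the *Ep300* experiment the same difference changed by 0.13 for *Msi2*, -0.06 for *Mbnl1*, 0.18 for *Rbpms* and -0.04 for *Rbm39*, and the genotypes overlapped in all 4.

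*Cdkn1a*-/- FL HSCs differed from WT at 1 member probe set. Of 46 tested, limma called 1 lower (0.353% of the 20962 probe sets) and 0 higher (0.0525%); nominally 1 was lower (1.82%) and 2 were higher (2.22%). Without WT sample 3 the nominal members were 1 in place of 3. The called one is the intronic *Rbm39* probe set 1438398_at, with levels of 9.90, 9.90 and 9.91 in WT and 6.88, 6.99, 7.45 and 6.83 in *Cdkn1a*-/- samples. The groups are far apart and each is tight, with a change in log2 level of -2.87 ± 0.16 (SE; limma 95% confidence interval -3.25 to -2.48, adjusted p = 0.000775). The other intronic *Rbm39* probe sets did not share it. 1446147_at lay at 11.72, 12.37 and 11.85 in WT against 12.24, 12.85, 12.84 and 12.38 (change 0.60, adjusted p = 0.643 from limma), and 1456386_at had a change of 0.09. The brightest *Rbm39* probe set, 1420982_at, lay at 14.38, 14.42 and 14.19 in WT against 14.34, 14.42, 14.40 and 14.30. Mutant and WT animals came from separate stocks of mixed B6/129Sv background, so that the allele and other differences between the stocks cannot be told apart.

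The *Msi2* introns in this experiment turn on WT sample 3, the library with high erythroid, hepatocyte and macrophage markers. At 1454557_at the WT levels were 8.87, 8.94 and 5.30 and the *Cdkn1a*-/- levels 9.24, 9.38, 8.93 and 8.33. At 1458542_at they were 9.44, 10.01 and 6.94 against 8.85, 9.90, 9.12 and 8.48, and at 1441373_at 9.57, 10.12 and 7.51 against 9.56, 10, 9.48 and 9.21. Sample 3 is the lowest WT sample at all 6 intronic *Msi2* probe sets, while at the mRNA probe set 1435521_at it is the highest, with WT levels of 12.14, 11.73 and 12.21 against 11.56, 11.38, 11.87 and 11.87. The change at 1454557_at was 1.27 ± 0.91 (SE; limma adjusted p = 0.720) with sample 3 and 0.07 without it. At 1458542_at it was 0.29 with and -0.63 without it, and at 1441373_at 0.49 with and -0.29 without it, none of them called either way. The part of the other cell types in these levels was not tested.

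The same sample was low at other members. *Rbpms* intronic 1459078_at lay at 7.02, 7.02 and 5.73 in WT against 7.02, 7.02, 7.55 and 7.02, and *Mbnl2* 1457477_at at 7.85, 8.08 and 6.51 against 8.09, 8.64, 8.56 and 8.26. The change of that *Mbnl2* probe set was 0.91 (adjusted p = 0.684 from limma). The probe sets that were nominally higher were *Rbm39* 1446147_at, given above, and 1446148_x_at with a change of 0.74 (adjusted p = 0.648 from limma). *Msi1* 1452287_at reached 6.33 in WT sample 3 against 4.27 and 4.25 in the other WT samples and 3.73 to 4.29 in the *Cdkn1a*-/- samples, all below the minimum. The CELF genes moved little: *Celf1* 1426407_at lay at 13.80, 13.83 and 13.78 in WT against 13.81, 13.74, 13.94 and 13.81, and *Celf2* 1423895_a_at at 14.57, 14.56 and 14.45 against 14.59, 14.63, 14.52 and 14.61. *Mbnl3* was measured at 3 probe sets, with changes of 0.24, 0.02 and -0.22, and at 1422836_at the *Cdkn1a*-/- samples (9.32 to 9.54) lay just above the WT samples (9.05 to 9.29; adjusted p = 0.683 from limma).

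In MEFs most of these introns stayed below the minimum. Only the 3 intronic *Rbm39* probe sets of the 13 reached the minimum, and those of *Msi2* lay between 1.56 and 3.52 in all 8 samples, although *Msi2* mRNA probe set 1435521_at was at 8.75, 7.70, 7.64 and 8.19 in WT and 8.49, 7.86, 6.97 and 8.68 in *Crebbp*+/- MEFs. The change of that probe set was -0.07 ± 0.20 (SE), and its sign varied among the litters. The intronic probe sets of *Rbpms* and *Mbnl1* had highest levels of 5.37 and 5.71. Of 31 member probe sets tested, limma called 0, as over all 15502 (0% in either direction); nominally there was 1 higher (all probe sets: 0.316%) and 0 lower (0.645%). The 1 was *Mbnl3* 1422836_at, higher in 4 of 4 litters, with levels of 7.36, 6.59, 6.56 and 6.86 in WT and 7.58, 6.85, 7.12 and 8.16 in *Crebbp*+/- MEFs (change 0.59 ± 0.19 SE, limma adjusted p = 0.701).

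*Rbm39* introns were higher, not lower, in *Crebbp*+/- MEFs, without a call. At 1456386_at the levels were 8.77, 8.74, 8.89 and 8.90 in WT and 9.11, 9.17, 9.22 and 9.11 in *Crebbp*+/- samples. The groups did not overlap, and the change was 0.33 ± 0.07 (SE; limma 95% confidence interval 0.15 to 0.50, adjusted p = 0.553). At 1438398_at they were 9.45, 9.13, 9.63 and 9.24 against 9.73, 9.67, 10.002 and 9.30, higher in 4 of 4 litters (change 0.31, adjusted p = 0.672 from limma), and at 1446147_at the change was 0.24, higher in 3 of 4. The brightest *Rbm39* probe set in MEFs, 1426671_a_at, had a change of -0.01. Of the 7 tested *Rbm39* probe sets not listed as intronic, however, 5 were higher and 2 lower, with a median change of 0.20. The mean of the introns minus the brightest probe set was 0.30 higher in the mutant, and 0.15 higher against the mean of all 7. In FL HSCs both *Crebbp*+/- pairs were lower at all 3 of these intronic probe sets. The difference between FL HSCs and MEFs was not tested.

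**Figure D4:**
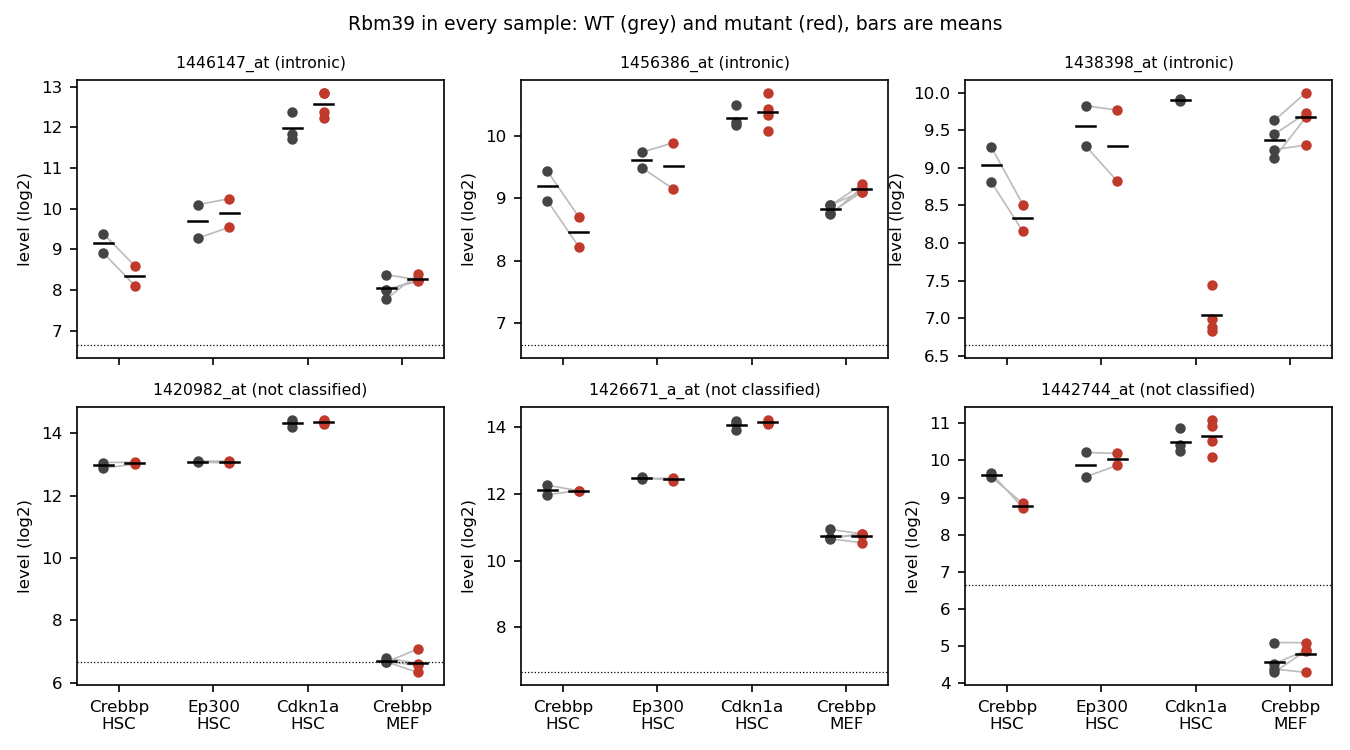
Level (log2, y axis, its own scale in each panel) of 6 *Rbm39* probe sets in every sample of the 4 experiments (x axis); WT grey, mutant red, bars are means, grey lines join pairs or litters, and the dotted line is the minimum of 6.64. The 4 *Cdkn1a*-/- samples of 1438398_at lie at 6.83 to 7.45 under WT samples at 9.90, the *Crebbp*+/- FL HSC samples lie under their WT partners in all 3 intronic panels and in 1442744_at, and 1420982_at is level in the FL HSC experiments.

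The remaining members in MEFs had changes in both directions, none of them called. *Rbpms* was lower at all 3 of its measured probe sets, which read the message or are not classified: 1425652_s_at lay at 6.72, 8.01, 8.09 and 7.68 in WT and 6.51, 7.43, 7.43 and 7.04 in *Crebbp*+/- samples (change -0.52 ± 0.10 SE, limma adjusted p = 0.505), lower in 4 of 4 litters. The changes of 1429359_s_at and 1437161_x_at were -0.51 and -0.34. *Celf2* was lower by 0.35 at 1423895_a_at (4 of 4 litters, adjusted p = 0.701 from limma), 0.36 at 1451154_a_at and 0.23 at 1450069_a_at. Beside these, all 10 fibroblast markers were lower in *Crebbp*+/- MEFs, 0 of them called, with a median change of -0.18 and a mean level of 13.20 to 13.61 in WT and 12.86 to 13.20 in *Crebbp*+/- samples. Their part in these values was not tested. *Mbnl2*, at 12.32 to 12.65 in WT and 12.23 to 12.64 in *Crebbp*+/- samples at 1455827_at, had a change of -0.10 there. *Celf1* had changes of -0.09 to 0.11 at its 4 measured probe sets. *Msi1* crossed the minimum only in *Crebbp*+/- MEFs, at 1452287_at, with levels of 6.42 to 6.55 in WT and 6.40 to 7.14 in *Crebbp*+/- samples (change 0.27, adjusted p = 0.753 from limma). All WT samples lay below the minimum there, so that the filter favoured a higher level in the mutant and the change is only a description. The *Mbnl3* probe sets 1434678_at and 1442549_at had changes of 0.45 and 0.21.

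Genes that act with or beside the members showed no called change in any of the 4 experiments. In *Crebbp*+/- FL HSCs, of 7 tested mRNAs known to be bound by Musashi proteins, 0 were called, with 1 lower, 6 higher and a median of 0.14. *Numb*, the Notch inhibitor and best known Musashi target, had a change of 0.72 (adjusted p = 0.154 from limma) with WT levels of 5.89 and 5.47 against 6.20 and 6.59, all below the minimum, and was tested only through samples of the *Ep300* experiment. *Hoxa9*, a homeobox factor of stem cells, had a change of -0.31 (adjusted p = 0.159) and *Jag1*, a Notch ligand, of 0.45. Of 9 tested splicing regulators of other families 1 was lower and 8 higher, led by *Elavl1* at 0.36 (adjusted p = 0.217), which binds AU-rich mRNAs. Of 16 tested regulators of translation and decay 7 were lower and 9 higher, with *Zfp36*, which promotes decay of AU-rich mRNAs, at -0.50 (adjusted p = 0.0921) and *Cpeb2*, which binds polyadenylation elements, at -0.62 (adjusted p = 0.147). The 8 genes of 3′ splice site recognition, the step in which U2AF acts, had a median of -0.03 (5 lower, 3 higher), and *Uhmk1*, a kinase of splicing factors, had the smallest p (change 0.29, adjusted p = 0.210). Of the other family members, *Celf3* to *Celf6* stayed below the minimum at the brightest probe set of each, the only one looked at. No probe set was found for *Rbpms2* or *Rbm23*.

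Across the 8 samples of the *Crebbp* and *Ep300* experiments, centred within each, the probe sets most like intronic *Msi2* 1441373_at belonged to *Ndufb2* (r = 0.983), *Zfp507* (0.978), *Ints6l* (0.978), *Srsf3* (0.972) and *Arhgap26* (0.971). Those most like the mRNA probe set 1435521_at belonged to *Stx7* (0.985), *Ccnt2* (0.981), *Paxbp1* (0.979), *Nop53* (0.979) and *Tef* (0.976). The lists shared no gene. These are the highest of 13332 values over 8 samples that share arrays and genotypes, given as a description.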

How the data were processed

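Log2 values were made by the authors with GCRMA, which corrects background, normalizes and summarizes each probe set, separately for the *Crebbp*, *Ep300* and *Cdkn1a* FL HSC and the MEF arrays; they were used as deposited, 31 arrays in all. The 64 control probe sets were left out and the 2 technical replicates of a sample averaged. Probe sets were named by the platform annotation (50 of the 59) or by the study's lists (9, all intronic).

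R 4.3.3 and limma 3.58.1 (lmFit, eBayes) were used for the tests. *Crebbp* and *Ep300* FL HSCs entered a single fit blocked on the pairs of equal sample number (2 residual degrees of freedom), MEFs were blocked on litter, and *Cdkn1a* samples had no block. Labels give litters for MEFs. For FL HSCs the methods used a paired test, and deviations from group means correlated between samples of the same number with r of 0.70 (*Crebbp*) and 0.40 (*Ep300*), and with 0.19 to 0.46 in MEFs. WT MEF samples 1 and 3 correlated more with a *Crebbp*+/- sample of another litter (0.59 and 0.58) than of their own (0.28 and 0.40). Replicates are separate pools or embryos. A probe set was tested if its highest sample reached log2(100) and called at an adjusted p under 0.05 with a fold over 1.5. The steps were tested on simulated data.

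Members and lists were chosen with earlier results of these data known. All 9 members are named, with full values for intronic, brightest and called probe sets; of each other list, called genes and those with the smallest p. A gene of a list is its brightest probe set outside the intronic list.
Alternatives were the fit without or with the block, other level filters, median centring, quantile normalization, single technical replicates, the methods' own t-test with and without adjustment, and leaving out each sample or pair. Presence calls were not used, and nothing is known here of the probe sequences. Of the probe sets, 34958 have 1 gene symbol in the annotation and 932 several; none was named from several.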

Additional observations from a re-analysis of the deposited data

Results flagged for a closer look

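In 11 of 108 groups of 4 samples (*Cdkn1a*-/-, WT MEF or *Crebbp*+/- MEF, at a tested member probe set) 1 sample lay far from the other 3 by Dixon's test; chance flags about 1 in 20 groups. In MEFs, WT sample 1 lay high at *Msi2* 1435520_at (7.75, others 6.67 to 6.83), *Mbnl3* 1434678_at (9.42, others 8.03 to 8.19), *Rbm39* 1420982_at (6.79, others 6.66 to 6.68) and *Rbm39* 1426671_a_at (10.94, others 10.65 to 10.69). *Mbnl2* 1436858_at was high in litter 4 in both genotypes, at 10.49 in WT (others 10.16) and 10.44 in *Crebbp*+/- (others 10.02 to 10.06). *Crebbp*+/- MEF sample 2 was low at *Rbm39* 1426671_a_at (10.54, others 10.77 to 10.81) and sample 4 at *Rbm39* 1442745_x_at (6.35, others 7.03 to 7.13). Among *Cdkn1a*-/- samples, sample 4 was high at *Mbnl3* 1422836_at (9.54, others 9.32 to 9.36), sample 3 at *Rbpms* 1459078_at (7.55, others 7.02), and sample 1 low at *Rbm39* 1443988_at (7.38, others 8.74 to 8.84).

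Of 25 member probe sets tested in both *Crebbp* experiments, 4, all of *Rbm39*, were lower in both *Crebbp*+/- FL HSC pairs and higher in all 4 *Crebbp*+/- MEF litters. This difference was not tested, and the share of all probe sets with this pattern was not computed. The 4 read the same gene, and the study listed the intronic ones for being lower in these FL HSC samples. The log2 changes were -0.71 and 0.31 at intronic 1438398_at, -0.74 and 0.33 at intronic 1456386_at, -0.53 and 0.20 at 1438397_a_at, and -0.73 and 0.32 at 1446148_x_at.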

How the results depend on the processing

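The *Crebbp* FL HSC calls depended on the fit. Each of the 10 intronic probe sets kept its sign in every setting in which it was tested. All settings reuse the same samples, in which the study listed or described intronic probe sets of the same genes as lower. The kept sign is therefore no independent evidence. Of 51 probe sets called (4 members), 0 and 0 were called with no replicate block, with each experiment fitted alone, with technical replicate 1 or 2 only, with no level filter, by the methods' paired t-test after adjustment, and without either pair (0 to 0). More were called with arrays centred on the median (222, 7 members) and with a filter on the mean level (222, 5 members, 4 of them lower). The same held for quantile normalization (190, 6 members) and the methods' paired t-test unadjusted (199, 8 members). That unadjusted test gave 11 in *Ep300* FL HSCs and 61 in MEFs, in place of 0; MEFs gave 2 with no replicate block and 0 to 2 without a litter. The 85 calls in *Cdkn1a* FL HSCs became 38 with the mean filter, 42 with no filter, 6 (0 members) with a replicate block on numbers 1 to 3, 141 and 548 by an unpaired t-test in place of the methods' paired one, with and without adjustment, and 38 to 87 without 1 sample. WT and *Cdkn1a*-/- samples came from separate stocks, so the numbers were not taken as pairs. The r with the same number was 0.25, 0.29 and -0.045, and the highest with another number -0.041, 0.115 and 0.117. *Rbm39* 1438398_at was called in every setting there except that block (change -2.80, adjusted p = 0.106 from limma). The fit of the *Crebbp* and *Ep300* difference called 0 in every setting. Of the intronic minus mRNA differences, that of *Rbm39* in *Crebbp* FL HSCs changed from -0.82 to -0.22. The cause of these differences between settings was not tested. With 2 pairs the adjusted p values near 0.05 are not firm, and signal near background limits the size of changes at dim probe sets.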
